A study of Rattus norvegicus with 19 samples.

Results

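The SLC25 carriers are the proteins that move metabolites across the inner membrane of mitochondria. Here they were all 40 genes with a symbol made of Slc25a and a number, out of 17455 genes in the counts, and this rule used no measured value. A filter on low counts kept 35 of the 40 carriers and 12388 of all genes for testing. Carriers of this family pass nucleotides, phosphate, carboxylates, amino acids, acylcarnitines, iron and cofactors between cytosol and matrix, mostly by exchanging one solute for another. In heart muscle the ADP/ATP carrier and the phosphate carrier feed the ATP synthase and return its product to the contractile apparatus, and the carnitine carrier brings in the fatty acids that are the main fuel. Carriers of malate, oxoglutarate and aspartate take reducing equivalents from the cytosol into the respiratory chain.

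The counts came from hearts of Sprague-Dawley rats that carried no transgene and were 24 weeks old when the study began. Over 5 weeks, HFpEF (heart failure with preserved ejection fraction) was brought on by a feed with 60% of its energy from lard and by L-NAME, which inhibits nitric oxide synthases, at 0.5 g/L in the water bottles. Rats harvested then formed the HFpEF group, and chow-fed rats without L-NAME formed control 5w at the same time and control 9w at week 9. Over 4 more weeks the remaining HFpEF rats received by gavage PBS alone (untreated), empagliflozin, an SGLT inhibitor, at 0.35 g/kg/day (EMPA), the antifibrotic pirfenidone at 0.3 g/kg/day (PFD), or both agents (EMPA + PFD). Each library was 1 heart. Groups held 3 libraries, except EMPA and PFD with 2 each, and the 19 libraries had totals from 7430539 to 13017754 counts. As a model these groups join an enzyme inhibitor with a diet, so an effect of either alone cannot be told apart. The methods of the paper give 5 weeks of L-NAME and diet, while its discussion speaks of induction for 9 weeks, so L-NAME and diet may have gone on during treatment. The samples are labelled as heart, and the paper gives left ventricle, so each value is an average over all cell types in the piece. Fewer cells of a type and less RNA per cell cannot be told apart in such bulk RNA.

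The libraries were first read for cell-type markers, in CPM, counts that edgeR scales to a common library total with TMM factors. All 10 cardiomyocyte markers were present in every group, with Myh6 the highest by its mean over all libraries though not in every library, and the skeletal muscle list summed to no more than 101 CPM in any library. Summed over the list, cardiomyocyte markers stood at 99324, 48877 and 53832 CPM in control 5w, 15293, 23534 and 41445 in HFpEF, 41957, 47539 and 44745 in control 9w, 76218, 20594 and 67221 in untreated, 56048 and 45410.0 in EMPA, 77700.2 and 81040.4 in PFD and 91041, 114793 and 90409 in EMPA + PFD. Control 5w replicate 1 was far above its own group, HFpEF replicate 1 was the lowest library of all, and untreated replicate 2 lay far below the other untreated hearts. The 40 carriers together summed to 12062, 4965 and 5512 CPM in control 5w, 2735, 4525 and 6433 in HFpEF, 6657, 7758 and 6714 in control 9w, 11535, 3533 and 9060.4 in untreated, 9332 and 6406 in EMPA, 10717 and 11565 in PFD and 12277, 14869.6 and 13113 in EMPA + PFD. The same 3 libraries stood apart in the carrier sum: control 5w replicate 1 high, HFpEF replicate 1 and untreated replicate 2 low. The 7 fibroblast markers summed to 4459.8, 40884 and 32939.6 CPM in control 5w, 16039.5, 9501 and 11841 in HFpEF, 4278, 3038 and 4476 in control 9w, 3889, 8141 and 3658 in untreated, 3612 and 7355 in EMPA, 4286 and 3838 in PFD and 4644, 2012 and 3921 in EMPA + PFD. Control 5w replicate 1 was again unlike replicates 2 and 3 of its group, this time on the low side. Its fibroblast sum was the median of all 19 libraries, and replicates 2 and 3 stood above every other library.

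The 5 atrial markers summed to 3284, 6124 and 4649 CPM in control 5w, 2086, 272 and 1968 in HFpEF, 5197, 188 and 23340.2 in control 9w, 48.00, 14872 and 484 in untreated, 698 and 5172 in EMPA, 2983 and 62.6 in PFD and 86.4, 381 and 153 in EMPA + PFD. Control 9w replicate 3 and untreated replicate 2 were high in these, with 42729 and 37596 counts of the atrial light chain Myl7. The 7 endothelial markers summed to 1720.4, 1446 and 1655 CPM in control 5w, 1648, 3454 and 2757 in HFpEF, 3668, 3745 and 3179 in control 9w, 2900.2, 3351 and 3142 in untreated, 2925 and 2256 in EMPA, 2362 and 2541 in PFD and 2029, 1756 and 1827 in EMPA + PFD. The brown fat marker Ucp1, itself a relative of the carriers, had 0 to 6 counts per library. A library split also ran against the labels. Every sample is labelled male, yet the Y-linked gene Eif2s3y had 0 counts in HFpEF replicates 1 and 3, in all 3 untreated libraries and in both PFD libraries, and 613 to 1321 counts in each of the others. Untreated therefore differed in this gene from control 9w, EMPA and EMPA + PFD in every library, and in those comparisons the treatment and the split cannot be told apart. The immune gene RT1-CE16 divided the libraries another way, with 0 to 3 counts in all 6 libraries of week 5 and both EMPA libraries and 308 to 922 counts in the rest. The comparison of both control groups and that of EMPA with untreated run along this division, and time or drug and the division cannot be told apart there. The test of whether the combination differed from the sum of the single-agent effects also uses EMPA, the only week 9 group on the low side. There too the effect and the division cannot be told apart.

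**Figure D1:**
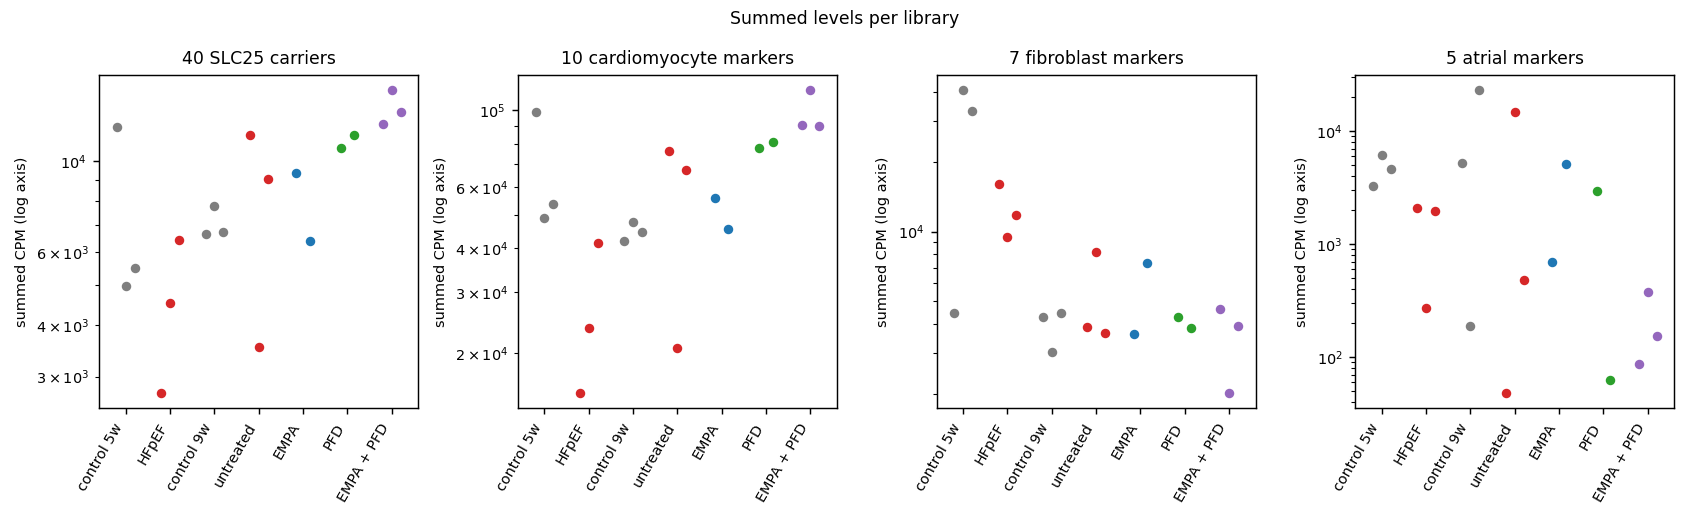
Summed CPM (log axis) of the 40 SLC25 carriers and of the cardiomyocyte, fibroblast and atrial marker lists, 1 point per library, in the 7 groups. The carrier sum was lowest in HFpEF replicate 1, at 2735 CPM, and highest in EMPA + PFD replicate 2, at 14869.6 CPM.

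Whether the hearts of rats given the inhibitor and the fat-rich feed differed from controls of the same week was the question of the disease comparison at week 5. With all libraries in the fit, most carriers that passed the test fell. A carrier passed when its edgeR quasi-likelihood p, adjusted by Benjamini-Hochberg over all 12388 genes, was under 0.05; changes are log2 fold changes, where 1 is 2-fold. In HFpEF against control 5w, 1 carrier rose and 9 fell, where 9.83% of all genes rose and 10.2% fell (20% in all). The median change of the 35 carriers was -0.31, beside 0.02 for all genes tested, and 10 of the 35 had a positive value. Of the 10 carriers that passed, 6 also changed at least 2-fold, as 8.69% of all genes did. All HFpEF libraries lay below all control libraries for 14 carriers and above for 4, against 19.1% and 18.6% of all genes. The count of carriers that passed was 6 without control 5w replicate 1 (12.1% of all genes) and 4 without HFpEF replicate 2 (12%), and the median was -0.10 without control 5w replicate 1. The balance of directions also moved: without HFpEF replicate 1 there were 3 rises and 4 falls (14% of all genes passed), and with a term for Eif2s3y 2 rises and 3 falls (10.8%). With only the HFpEF and control 5w libraries in the fit, 1 carrier rose and 2 fell (6.01%). Beside this fall, 3 of 10 cardiomyocyte markers fell and none rose (median -1.28), 4 of 7 endothelial markers rose (median 0.71) and 1 of 4 erythroid markers rose (median 0.64); their part in the result was not tested.

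How far healthy hearts moved between the same weeks was asked with control 9w against control 5w. Carriers moved in both directions in about equal numbers. There 7 carriers rose and 8 fell, with 17.3% and 17.2% of all genes doing so (34.5% in all), and the carriers' median was -0.11 beside -0.04. That median was 0.05 without control 5w replicate 1, -0.23 without control 5w replicate 2 or control 9w replicate 2 and -0.06 without control 9w replicate 1 or 3. At least 2-fold were 7 of these changes (14.7% of all genes). Libraries of control 9w lay wholly above for 9 carriers and wholly below for 11, against 24.6% and 24.7% of all genes. Without control 9w replicate 2 the count of carriers that passed was 9 rather than 15 (20.9% of all genes). In the same comparison 5 of 7 fibroblast markers (median -2.29) and 4 of 7 leukocyte markers (median -1.65) fell, and 6 of 7 endothelial markers (median 1.07) and 2 of 5 atrial markers (median 4.59) rose; 1 of 10 cardiomyocyte markers fell (median -0.55), 1 of 4 skeletal muscle markers rose, and of 7 smooth muscle and pericyte markers 1 rose and 1 fell. Atrial sums overlapped, at 5197, 188 and 23340 CPM in control 9w and 3284, 6124 and 4649 CPM in control 5w. The part of these markers in the carriers' changes was not tested. Control 5w was also the reference of the disease comparison, so both lists of changes share those 3 libraries.

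At week 9 the question was whether hearts of rats left on PBS differed from age-matched controls. No carrier passed there, while the untreated hearts were widely spread. The edgeR test of untreated against control 9w passed 0 carriers, beside 1.78% of all genes; 7 carriers had an unadjusted p under 0.05 (18.2% of all genes), and DESeq2 passed 3, all lower, beside 6.66% of all genes. These were Slc25a22 (log2 fold change -1.21, adjusted p 0.0211), Slc25a25 (-0.77, 0.0208) and Slc25a37 (-0.61, 0.0377). Groups did not overlap for 2 carriers with untreated above and 8 with untreated below, against 9.48% and 13.5% of all genes. Without untreated replicate 2 edgeR passed 3, beside 8.22% of all genes: Slc25a11 rose by 1.26 (adjusted p 0.0283), Slc25a39 rose by 0.63 (adjusted p 0.0252) and Slc25a37 fell by 0.75 (adjusted p 0.0417). In the fit of all libraries 2 of 4 erythroid markers fell (median -2.62) and 1 of 7 leukocyte markers rose (median 0.56) in untreated against control 9w; their part was not tested. Tested directly, the disease effect at week 9 minus that at week 5 differed for 11 carriers, 7 with the higher value at week 9 and 4 with the lower, where 9.76% and 10.2% of all genes did (20% in all); 7 differed at least 2-fold (12%). The count was 6 without untreated replicate 1 (10.7% of all genes) and 7 with only the libraries of these groups in the fit (13.1%). In this difference 3 of 10 cardiomyocyte markers were higher at week 9 (median 1.64), as was 1 of 7 smooth muscle and pericyte markers (median -0.21), and 2 of 7 endothelial markers (median -0.92) and 3 of 4 erythroid markers (median -3.43) were lower; their part was not tested.

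Whether both agents together changed the treated heart was asked with EMPA + PFD against untreated. More carriers were higher than lower in the treated hearts. In this comparison 4 carriers rose and 1 fell, with 6.6% and 5.52% of all genes doing so (12.1% in all), and 2 of the rises were at least 2-fold (3.82%). The carriers' median was 0.42 beside -0.03 for all genes, and 26 of 35 had a positive value. All EMPA + PFD libraries lay above all untreated libraries for 16 carriers and below for 5, against 18.7% of all genes in each direction. The count of 5 depended on single libraries and on the model. It was 1 without untreated replicate 2 or EMPA + PFD replicate 2 (1.13% and 0.888% of all genes), 2 without untreated replicate 3 or EMPA + PFD replicate 3 (3.37% and 2.53%), 3 without control 5w replicate 3 or control 9w replicate 1 (8.42% and 8.08%), and 8 without control 5w replicate 1 (16.4%); libraries outside the comparison enter through the shared estimate of spread. With a term for the Eif2s3y split, which only the HFpEF group can estimate, edgeR passed 0 carriers at a background of 3.99%, with 7 at an unadjusted p under 0.05 (23.2%). With only the untreated and EMPA + PFD libraries in the fit it also passed 0, at a background of 0.0435%, with 12 at an unadjusted p under 0.05 (28%). DESeq2, fitted to all libraries without that term, passed 7, where 20.4% of all genes passed. Of 10 cardiomyocyte markers 1 rose here (median 0.84), and 2 of 5 atrial markers fell (median -6.45). The atrial sums overlapped, at 48.0, 14872 and 484 CPM in untreated and 86.4, 381 and 153 CPM in EMPA + PFD, with untreated replicate 2 alone far above the rest. Of 7 endothelial markers 1 fell (median -0.74), and 1 of 4 erythroid markers rose (median 0.31). The part of these markers was not tested.

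Each agent alone was compared with untreated to ask what it did by itself, and no carrier passed in either comparison. EMPA passed 0 carriers by edgeR at a background of 0.0404%, 5 at an unadjusted p under 0.05 (8.63%) and 0 by DESeq2 (0.768%). PFD passed 0 carriers by edgeR at a background of 0.00807%, 3 at an unadjusted p under 0.05 (5.21%) and 0 by DESeq2 (0.0404%). The interaction, which asks whether the combination differed from the sum of the single-agent effects, passed 0 carriers by edgeR at 0.00807%, 6 at an unadjusted p under 0.05 (9.13%) and 0 by DESeq2 (0.436%). Carrier libraries lay wholly above and below untreated for 5 and 5 carriers in EMPA (12.3% and 11.4% of all genes) and for 5 and 4 in PFD (11.4% and 12.8%). With 2 libraries per single agent, these results do not show that the carriers stayed the same. The combination was also set against healthy hearts of the same week; EMPA and PFD alone were not tested against them. In EMPA + PFD against control 9w 10 carriers rose and 4 fell, where 17.1% and 16.6% of all genes did (33.8% in all), with a median of 0.31 beside -0.08 (0.18 without control 9w replicate 3); 7 changed at least 2-fold (12.1%). The treated libraries lay wholly above for 15 carriers and wholly below for 6, against 24.7% and 26.5% of all genes. The count was 8 without control 9w replicate 1 (22.7% of all genes), 7 without control 9w replicate 2 (20.8%) and 7 without EMPA + PFD replicate 2 (20%). Alongside, 4 of 10 cardiomyocyte markers rose (median 1.33), and 6 of 7 endothelial (median -1.06), 4 of 5 atrial (median -7.23) and 3 of 4 erythroid markers (median -2.48) fell. Atrial sums overlapped, at 5197, 188 and 23340 CPM in control 9w and 86.4, 381 and 153 CPM in EMPA + PFD. The part of these markers was not tested. This comparison and that with untreated share the EMPA + PFD libraries, it shares control 9w with the disease comparison at week 9, and all drug effects share the untreated libraries.

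**Figure D2:**
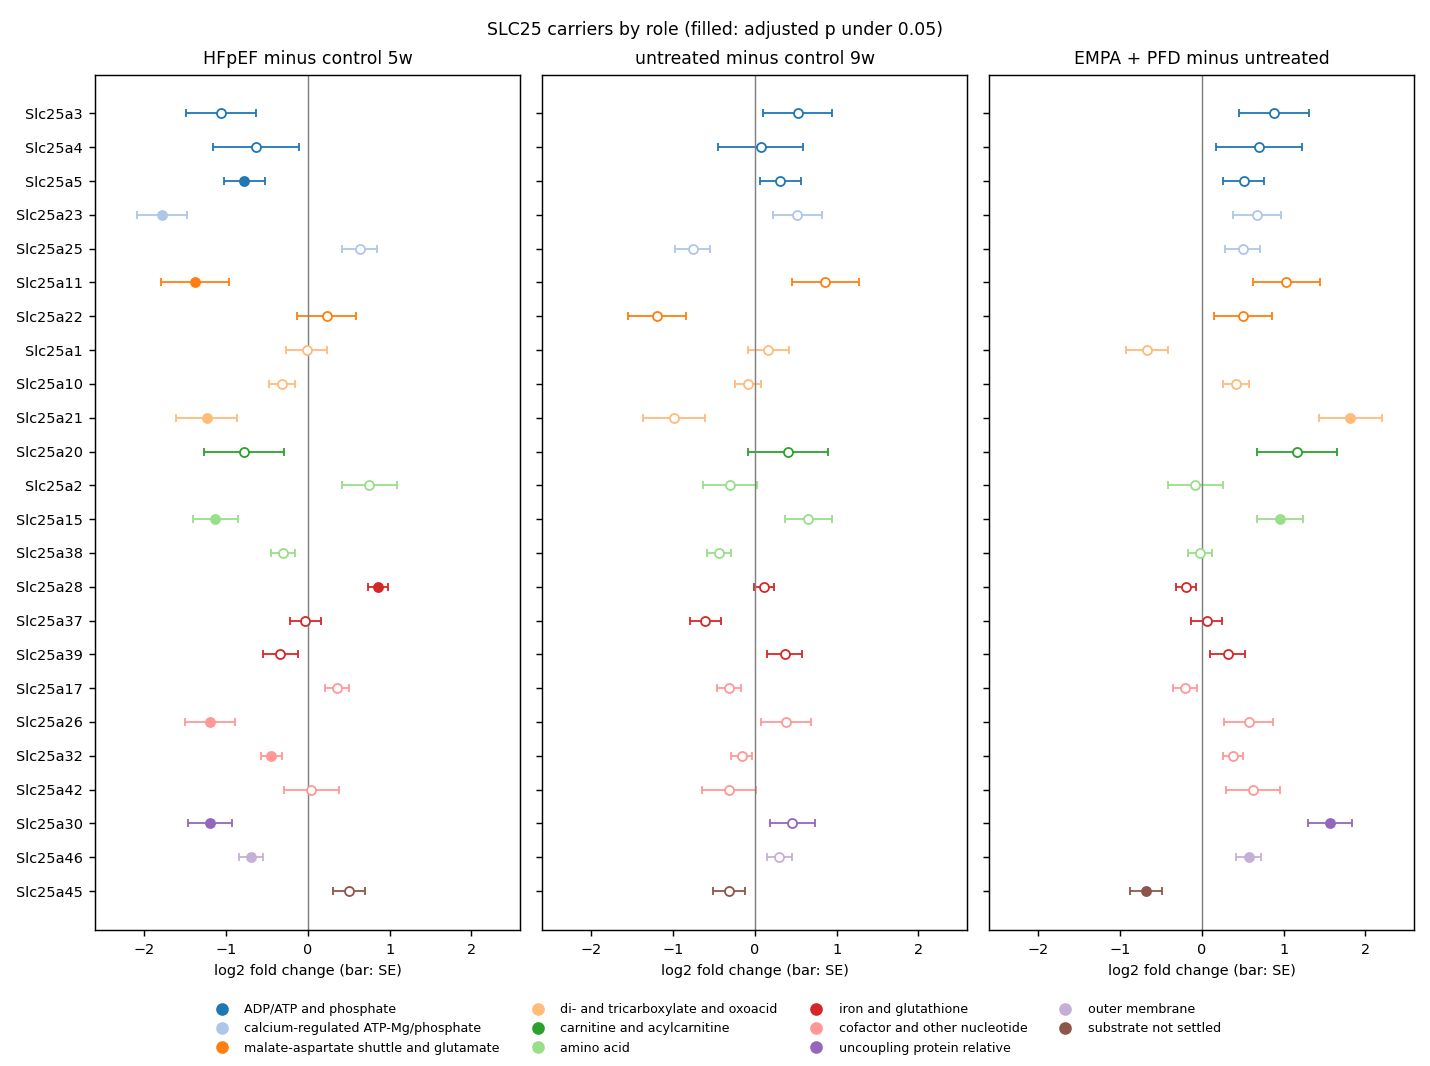
Log2 fold change of the carriers that passed in any of the 9 comparisons, and of Slc25a1, Slc25a4 and Slc25a10, ordered and coloured by role, in HFpEF minus control 5w, untreated minus control 9w and EMPA + PFD minus untreated; bars are standard errors and filled points have an adjusted p under 0.05. Filled points number 10, 0 and 5, and 9 of the 10 at week 5 lie below 0.

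The exchange of ADP for ATP is the task of Slc25a4, the isoform typical of heart and muscle, and Slc25a5, a widely expressed isoform. Slc25a4 was at 6459, 2047 and 2332 CPM in control 5w and 964, 2509 and 3500.1 CPM in HFpEF. At week 9 it was at 3917, 4818 and 3886 CPM in control 9w and 6567, 1744 and 4971 CPM in untreated, and under treatment at 5375 and 3221 CPM in EMPA, 5895 and 6466 CPM in PFD and 6628, 8056 and 6892 CPM in EMPA + PFD. Control 5w replicate 1 was high and HFpEF replicate 1 and untreated replicate 2 were low, and the groups overlapped in both disease comparisons. The EMPA + PFD hearts all lay above the untreated ones. Its log2 fold change was -0.64 (SE 0.52, adjusted p 0.401) for disease at week 5 and 0.70 (SE 0.52, adjusted p 0.358) for the combination, and it passed in none of the comparisons with all libraries in the fit. Slc25a4 passed in EMPA + PFD against control 9w with only the libraries compared (0.79, adjusted p 0.00985). Slc25a5 was at 408, 324 and 309 CPM in control 5w and 211, 137 and 258 CPM in HFpEF, with every HFpEF heart below every control. It fell by 0.78 (SE 0.25, adjusted p 0.0407). That call was lost without control 5w replicate 1, 2 or 3, HFpEF replicate 1 or 2 or control 9w replicate 1 (log2 fold changes from -0.86 to -0.56, adjusted p from 0.0536 to 0.144). At week 9 Slc25a5 was at 163, 164 and 192 CPM in control 9w and 263, 137 and 243 CPM in untreated, and with treatment at 208 and 275 CPM in EMPA, 343 and 240.3 CPM in PFD and 292, 315 and 310.2 CPM in EMPA + PFD. Control 9w was below control 5w throughout (-1.01, adjusted p 0.00767), untreated overlapped control 9w, and EMPA + PFD lay above both. Its disease effects, -0.78 and 0.31, differed by 1.09 (adjusted p 0.0422), lost without control 5w replicate 1, 2 or 3, HFpEF replicate 1 or 2, control 9w replicate 1 or 2, untreated replicate 1 or 3 or EMPA + PFD replicate 3 (log2 fold changes from 0.88 to 1.17, adjusted p from 0.0512 to 0.119). It rose by 0.82 in EMPA + PFD against control 9w (adjusted p 0.0215), a call lost without control 9w replicate 1 or 2 or EMPA + PFD replicate 2 (log2 fold changes from 0.78 to 0.81, adjusted p from 0.0552 to 0.0719). How reads fitting both ADP/ATP carrier genes, which are close in sequence, were counted is not given in the sources used here. Slc25a5 lost its call in HFpEF with only the libraries compared (-0.78, adjusted p 0.108), and for the difference between disease effects with only the libraries compared (1.10, adjusted p 0.0715) and with the Eif2s3y term (0.88, adjusted p 0.0874).

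Phosphate for the ATP synthase enters through Slc25a3, which was at 3241, 1381 and 1599 CPM in control 5w and 674, 840.2 and 1468 CPM in HFpEF. Its later values were 1315, 1439.8 and 1412 CPM in control 9w and 2907, 754 and 2329 CPM in untreated, and 2243 and 1568 CPM in EMPA, 2765 and 3029 CPM in PFD and 3312, 4068 and 3647 CPM in EMPA + PFD. The week 5 groups overlapped, untreated replicate 2 was low beside the other untreated hearts, and EMPA + PFD lay above every untreated and control 9w heart. Slc25a3 rose by 1.40 (SE 0.43, adjusted p 0.0221) in EMPA + PFD against control 9w. The call was lost without control 9w replicate 1, 2 or 3 or EMPA + PFD replicate 2 (log2 fold changes from 1.34 to 1.43, adjusted p from 0.0525 to 0.0699). In the disease comparison at week 5 it was at -1.06 (adjusted p 0.0909), and passed without HFpEF replicate 3 (log2 fold change -1.45, adjusted p 0.0493) and without untreated replicate 2 (-1.06, 0.0282). The difference between disease effects of Slc25a3, 1.58 (adjusted p 0.07499), passed without HFpEF replicate 3 or untreated replicate 2 (log2 fold changes from 1.97 to 1.98, adjusted p from 0.00768 to 0.0399). Slc25a3 passed in HFpEF in DESeq2 (-1.07, adjusted p 0.04295), and for the difference between disease effects in DESeq2 (1.59, adjusted p 0.0331). Of the 16 ATP synthase genes these carriers serve, none passed in edgeR at week 5 (median -0.47). None passed in EMPA + PFD against untreated (median 0.38). Against control 9w 3 rose in EMPA + PFD (median 0.46), as 17.1% of all genes did: Atp5f1a by 2.03, Atp5pb by 1.64 and Atp5f1b by 1.40. The 3 outer membrane porins, through which the solutes reach the carriers, had 2 that fell at week 5, Vdac1 by 1.27 and Vdac2 by 0.90. Of all genes 10.2% fell there. In EMPA + PFD none of the 3 passed against untreated (median 0.65), and 2 rose against control 9w (median 0.91), as 17.1% of all genes did. In the difference between disease effects 1 porin was higher at week 9 (median 1.16), as 9.76% of all genes were. The mitochondrial creatine kinases, 2 of 2 tested, did not pass in the comparisons of disease or treatment.

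Slc25a23, Slc25a24 and Slc25a25 exchange ATP-Mg for phosphate when cytosolic calcium rises and so set the pool of adenine nucleotides in the matrix. Slc25a23 was at 79.7, 40.1 and 47.7 CPM in control 5w and 10.1, 20.3 and 18.3 CPM in HFpEF. Each HFpEF heart was below each control, HFpEF replicate 1 the lowest. It fell by 1.78 (SE 0.31, adjusted p 0.00231), with values from -1.98 to -1.43 when any 1 of the 19 libraries was left out, all past the threshold. At week 9 its levels were 29.2, 22.4 and 37.8 CPM in control 9w and 55.8, 28.6 and 43.9 CPM in untreated, and 45.9 and 37.8 CPM in EMPA, 46.9 and 54.01 CPM in PFD and 67.8, 71.9 and 65.2 CPM in EMPA + PFD. Untreated overlapped control 9w, and EMPA + PFD lay above both. Slc25a23 rose by 1.19 in EMPA + PFD against control 9w (adjusted p 0.00834), and its disease effects of -1.78 at week 5 and 0.52 at week 9 differed by 2.30 (SE 0.43, adjusted p 0.00365). Between the controls it fell by 0.90 (adjusted p 0.0306), a call lost without control 5w replicate 1 or control 9w replicate 1 or 2 (log2 fold changes from -0.89 to -0.55, adjusted p from 0.0826 to 0.153). Slc25a23 lost its call in HFpEF with the Eif2s3y term (-1.46, adjusted p 0.0546), and between the controls with only the libraries compared (-0.88, adjusted p 0.0672).

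Slc25a25 took a different course. It was at 19.1, 17.5 and 17.4 CPM in control 5w and 22.2, 25.8 and 35.8 CPM in HFpEF, and at 54.4, 56.2 and 50.6 CPM in control 9w and 32.3, 27.04 and 36.04 CPM in untreated. All control 9w hearts were above all control 5w hearts, and all untreated hearts were below control 9w. The rise between the controls was 1.58 (SE 0.22, adjusted p 0.000278). At week 5 the disease change of 0.63 missed the threshold (adjusted p 0.0526), though groups did not overlap, and it passed without HFpEF replicate 1, untreated replicate 2, PFD replicate 1 or 2 or EMPA + PFD replicate 1 (log2 fold changes from 0.63 to 0.78, adjusted p from 0.0326 to 0.0444). Its disease effect was -0.76 at week 9, and the effects at both times differed by -1.39 (adjusted p 0.00806). Under treatment Slc25a25 was at 56.6 and 44.7 CPM in EMPA, 60.2 and 34.98 CPM in PFD and 34.2, 48.8 and 51.6 CPM in EMPA + PFD. PFD replicates were far apart, and EMPA + PFD overlapped both untreated and control 9w; its change against untreated was 0.50 (adjusted p 0.123) and passed without EMPA + PFD replicate 1 (log2 fold change 0.68, adjusted p 0.0461). Slc25a25 passed in HFpEF in DESeq2 (0.63, adjusted p 0.0339). Slc25a24 ranged from 17.8 to 82.7 CPM over all libraries, with its highest value in HFpEF replicate 1, and passed in no comparison with all libraries in the fit; between the controls it was at -0.63 and passed without control 5w replicate 1 or untreated replicate 2 (log2 fold changes from -0.83 to -0.63, adjusted p from 0.0191 to 0.0458). Slc25a41, a related ATP-Mg/phosphate carrier, had 0 or 1 count per library and was not tested. Slc25a24 passed in EMPA + PFD against control 9w with only the libraries compared (-0.56, adjusted p 0.0394). Matrix calcium itself is handled by the uniporter and its partners, of which 7 were tested. Mcu, Micu2 and Letm1 fell at week 5 (by 0.57, 0.45 and 0.71), as 10.2% of all genes did. Between the controls 4 of the 7 fell and 1 rose, as 17.2% and 17.3% of all genes did. With the combination 4 rose and 1 fell, as 6.6% and 5.52% of all genes did. Among the rises were Mcu by 0.65, Micu2 by 0.73 and Letm1 by 0.87.

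In the malate-aspartate shuttle Slc25a11 exchanges oxoglutarate for malate. It was at 447, 202 and 227 CPM in control 5w and 77.3, 101 and 157 CPM in HFpEF. All HFpEF hearts were below all controls, with control 5w replicate 1 far above the rest. Slc25a11 fell by 1.38 (SE 0.41, adjusted p 0.0306), a call lost without control 5w replicate 1 or HFpEF replicate 1 or 2 (log2 fold changes from -1.32 to -0.93, adjusted p from 0.08898 to 0.136). The later levels were 121, 116 and 142 CPM in control 9w and 352, 82.3 and 256 CPM in untreated, and 190.0 and 167 CPM in EMPA, 332 and 351 CPM in PFD and 446, 539 and 423 CPM in EMPA + PFD. Untreated spanned control 9w, with replicate 2 below it and replicates 1 and 3 above; the hearts of all treated groups were above every control 9w heart. In EMPA + PFD against control 9w, groups that differ in diet and L-NAME as well as drugs, it rose by 1.89 (SE 0.42, adjusted p 0.00443), and every fit with 1 library left out passed, from 1.79 to 1.98. Against untreated the change was 1.03 (adjusted p 0.1004) and passed without untreated replicate 1 (log2 fold change 1.47, adjusted p 0.0353). The disease effects at week 5 and week 9, -1.38 and 0.86, differed by 2.24 (adjusted p 0.0162), a call lost without untreated replicate 1 (log2 fold change 1.80, adjusted p 0.0532). Between the controls Slc25a11 fell by 1.21 (adjusted p 0.03496), lost without control 5w replicate 1 or control 9w replicate 1, 2 or 3 (log2 fold changes from -1.30 to -0.75, adjusted p from 0.0571 to 0.161). Slc25a11 lost its call in HFpEF with only the libraries compared (-1.39, adjusted p 0.0911) and with the Eif2s3y term (-1.52, adjusted p 0.1402), and for the difference between disease effects with only the libraries compared (2.24, adjusted p 0.0522).

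The glutamate carrier Slc25a22 was at 5.65, 2.95 and 2.15 CPM in control 5w and 2.73, 5.41 and 4.47 CPM in HFpEF, and at 9.59, 11.2 and 11.7 CPM in control 9w and 4.85, 3.65 and 5.69 CPM in untreated. Control 9w was above every library of week 5 and above every untreated heart. It rose by 1.60 between the controls (SE 0.36, adjusted p 0.00404), while untreated against control 9w gave -1.20 (adjusted p 0.0874). The difference between the disease effects, -1.43 (adjusted p 0.0573), passed without control 5w replicate 1 or HFpEF replicate 1 (log2 fold changes from -1.92 to -1.67, adjusted p from 0.0158 to 0.0336). With treatment it was at 11.1 and 9.96 CPM in EMPA, 8.76 and 4.53 CPM in PFD and 4.97, 6.93 and 8.15 CPM in EMPA + PFD, EMPA and control 9w overlapping. Slc25a22 passed in EMPA + PFD against control 9w with only the libraries compared (-0.68, adjusted p 0.0457), and for the difference between disease effects in DESeq2 (-1.43, adjusted p 0.02898). Its counts were 27 to 117 per library. The other glutamate carrier, Slc25a18, had 0 to 7 counts and was not tested, and the aspartate/glutamate carriers Slc25a12 and Slc25a13 were not analysed here. Of the 4 shuttle enzymes, Got1 and Got2 fell at week 5 (by 1.54 and 1.45), as 10.2% of all genes did. None passed with the combination against untreated (median 0.97). All 4 rose against control 9w (median 1.46), as 17.1% of all genes did, Got2 most clearly at 2.12 (adjusted p 0.00461).

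**Figure D3:**
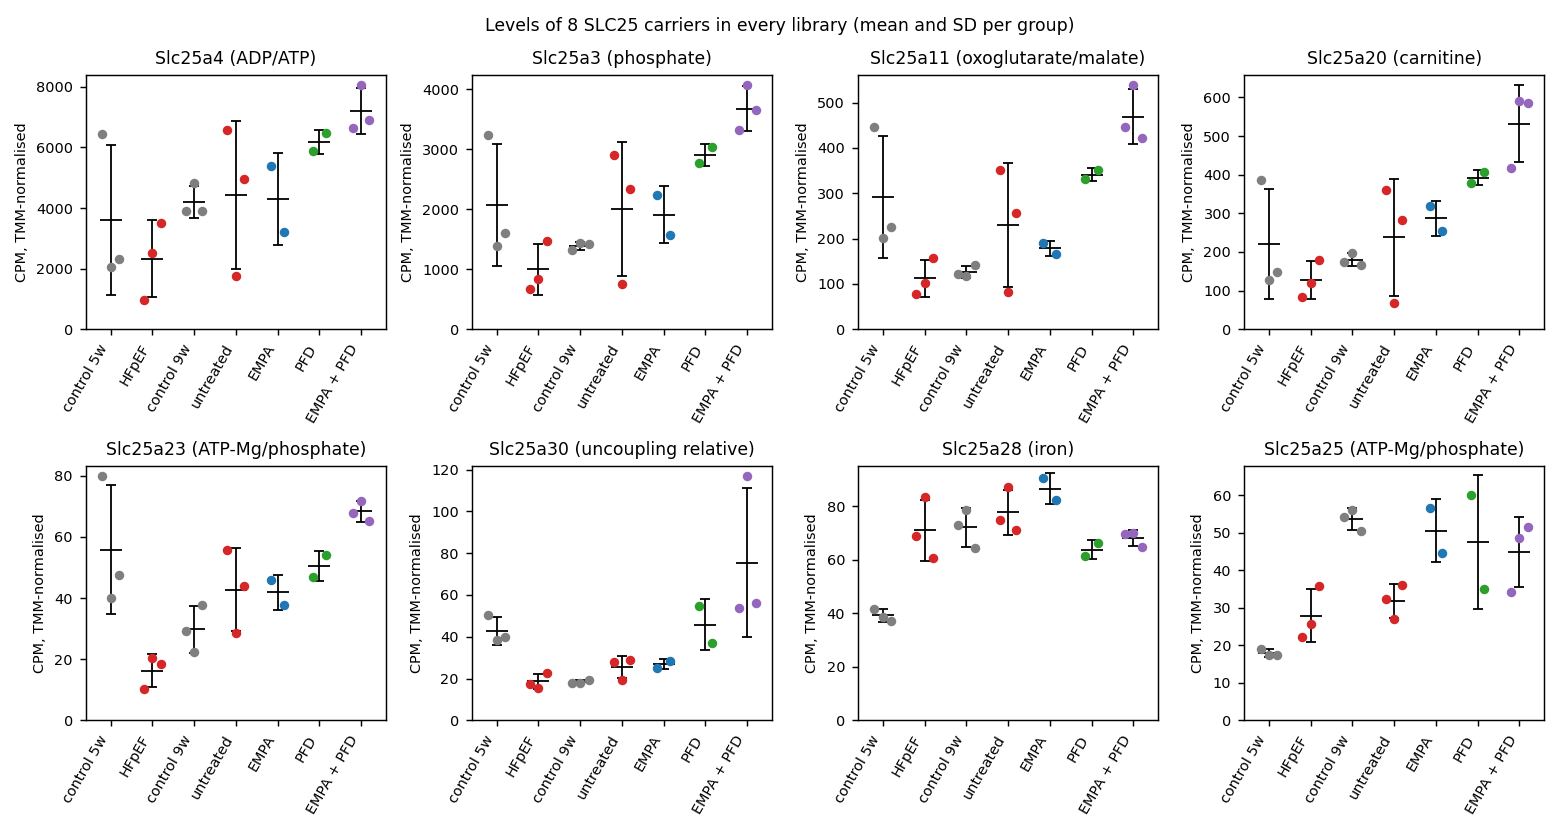
CPM of 8 carriers in every library of the 7 groups, 1 point per library, with the mean and SD of each group as a line and bar; each axis starts at 0. Slc25a23, Slc25a11 and Slc25a30 were lower in every HFpEF heart than in any control 5w heart, and Slc25a28 and Slc25a25 were higher in each.

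The oxodicarboxylate carrier Slc25a21 brings oxoadipate, from lysine breakdown, to the matrix. It was at 7.44, 2.79 and 4.14 CPM in control 5w and 2.15, 1.74 and 2.14 CPM in HFpEF, and at 3.27, 5.04 and 3.69 CPM in control 9w, 2.32, 1.62 and 2.11 CPM in untreated and 4.49, 11.1 and 5.75 CPM in EMPA + PFD. HFpEF lay below control 5w, untreated below control 9w, and EMPA + PFD above untreated with replicate 2 by far the highest; counts were low, at 19 to 93 per library. Slc25a21 fell by 1.24 in HFpEF (SE 0.37, adjusted p 0.0319), a call lost without control 5w replicate 1 or 3 or HFpEF replicate 1, 2 or 3 (log2 fold changes from -1.33 to -0.77, adjusted p from 0.0525 to 0.161). It rose by 1.82 with the combination (SE 0.38, adjusted p 0.0135), lost without untreated replicate 2 or EMPA + PFD replicate 2 (log2 fold changes from 1.36 to 1.68, adjusted p from 0.0665 to 0.0767). The single agents gave 2.93 and 3.52 CPM in EMPA and 4.93 and 4.22 CPM in PFD, above untreated in each library, with changes of 0.68 and 1.18 that did not pass. In EMPA + PFD against control 9w Slc25a21 was at 0.83 (adjusted p 0.0917), and passed without control 5w replicate 1 or EMPA + PFD replicate 1 (log2 fold changes from 0.85 to 1.09, adjusted p from 0.0412 to 0.0488). Slc25a21 lost its call in HFpEF with only the libraries compared (-1.24, adjusted p 0.117), with the replicate block (-1.23, adjusted p 0.0516) and with the Eif2s3y term (-1.45, adjusted p 0.124), and in EMPA + PFD against untreated with only the libraries compared (1.80, adjusted p 0.0933) and with the Eif2s3y term (2.12, adjusted p 0.103).

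Slc25a1 exports citrate for fatty acid synthesis. Its levels were 9.99, 21.1 and 18.3 CPM in control 5w and 18.6, 16.2 and 14.1 CPM in HFpEF, 11.2, 15.2 and 9.77 CPM in control 9w and 12.4, 16.7 and 11.3 CPM in untreated, and 13.3 and 15.7 CPM in EMPA, 9.86 and 11.3 CPM in PFD and 10.1, 7.05 and 8.36 CPM in EMPA + PFD. HFpEF and untreated overlapped their controls, and EMPA + PFD lay below untreated. The change with the combination was -0.67 (SE 0.26, adjusted p 0.0941), and it passed without control 5w replicate 1 (log2 fold change -0.65, adjusted p 0.0465); between the controls, -0.45, it passed without control 5w replicate 1 (log2 fold change -0.70, adjusted p 0.02698). Slc25a10 exchanges dicarboxylates such as malate and succinate for phosphate. It was at 26.2, 18.4 and 17.7 CPM in control 5w and 16.1, 15.7 and 18.2 CPM in HFpEF, 16.4, 20.8 and 19.04 CPM in control 9w and 19.7, 14.6 and 18.7 CPM in untreated, and 15.2 and 17.98 CPM in EMPA, 17.2 and 17.1 CPM in PFD and 22.9, 24.9 and 22.98 CPM in EMPA + PFD. EMPA + PFD lay above untreated and control 9w, while HFpEF overlapped control 5w. Its change with the combination was 0.42 (SE 0.16, adjusted p 0.09002), and passed without control 5w replicate 1 (log2 fold change 0.44, adjusted p 0.0363); against control 9w it was 0.33, passing without control 5w replicate 1 (log2 fold change 0.35, adjusted p 0.0486). Among 5 enzymes that make or use these acids 3 fell at week 5, Cs by 2.10 and Ogdh by 2.06 among them, as 10.2% of all genes did. Cs and Ogdh rose with the combination, by 1.55 and 1.70, as 6.6% of all genes did. The pyruvate carrier genes, 2 of 2 tested, did not pass in these comparisons.

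Slc25a20 exchanges acylcarnitine for carnitine and so admits long-chain fatty acids. It was at 386, 128 and 148 CPM in control 5w and 83.5, 121 and 180.3 CPM in HFpEF. Later it was at 175, 198 and 166 CPM in control 9w and 359.7, 68.8 and 284 CPM in untreated, and with treatment at 319.6 and 254 CPM in EMPA, 378 and 406 CPM in PFD and 417, 592 and 586 CPM in EMPA + PFD. Control 5w replicate 1 and untreated replicate 2 were far from their groups, HFpEF overlapped control 5w, and every EMPA + PFD heart was above every untreated heart. Slc25a20 rose by 1.57 in EMPA + PFD against control 9w (SE 0.50, adjusted p 0.0256), a call lost without control 9w replicate 1, 2 or 3 or EMPA + PFD replicate 2 or 3 (log2 fold changes from 1.49 to 1.64, adjusted p from 0.0587 to 0.0743). Against untreated it gave 1.16 (SE 0.49, adjusted p 0.118), and at week 5 -0.78 (adjusted p 0.263). The difference between its disease effects, 1.19, passed without untreated replicate 2 (log2 fold change 1.62, adjusted p 0.0327). Of the 5 tested partners in the carnitine shuttle, Cpt1a rose both in HFpEF (by 0.60) and with the combination (by 0.95). Cpt1b, Cpt2 and Crat rose in EMPA + PFD against control 9w, by 1.38, 2.27 and 2.88, as 17.1% of all genes did.

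Slc25a15 and Slc25a2 carry ornithine and related basic amino acids. Slc25a15 was at 22.8, 13.4 and 14.6 CPM in control 5w and 7.97, 6.05 and 9.11 CPM in HFpEF, and at 7.56, 6.395 and 7.18 CPM in control 9w, 16.6, 7.55 and 9.27 CPM in untreated and 17.5, 23.6 and 23.6 CPM in EMPA + PFD. HFpEF lay below control 5w, untreated replicate 1 stood above the rest of its group, and EMPA + PFD was above every untreated and control 9w heart. It fell by 1.13 in HFpEF (SE 0.28, adjusted p 0.0142), a call lost without control 5w replicate 1 or HFpEF replicate 2 (log2 fold changes from -0.99 to -0.85, adjusted p from 0.0537 to 0.0589). With the combination it rose by 0.96 against untreated (SE 0.28, adjusted p 0.0399), lost without control 5w replicate 3, control 9w replicate 1, untreated replicate 2 or 3 or EMPA + PFD replicate 2 or 3 (log2 fold changes from 0.74 to 0.96, adjusted p from 0.0508 to 0.1704). In EMPA + PFD against control 9w it rose by 1.61 (adjusted p 0.00141), and between the controls it fell by 1.26 (adjusted p 0.004203); both calls held in all 19 fits with 1 library left out. The single agents gave 7.46 and 9.47 CPM in EMPA and 11.2 and 14.2 CPM in PFD. The disease effects, -1.13 at week 5 and 0.65 at week 9, differed by 1.78 (adjusted p 0.00878). Slc25a15 lost its call in HFpEF with only the libraries compared (-1.13, adjusted p 0.0662), and in EMPA + PFD against untreated with only the libraries compared (0.95, adjusted p 0.128) and with the Eif2s3y term (1.45, adjusted p 0.1100).

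Slc25a2 was at 2.07, 2.79 and 1.59 CPM in control 5w and 1.72, 5.41 and 3.84 CPM in HFpEF, with overlap, and at 6.09, 4.92 and 4.49 CPM in control 9w and 4.01, 4.303 and 4.21 CPM in untreated, with untreated below. Its counts were 20 to 59 per library. It rose by 1.26 between the controls (SE 0.34, adjusted p 0.0114), a call lost without control 5w replicate 3 (log2 fold change 1.08, adjusted p 0.0523); the disease change of 0.75 at week 5 passed without HFpEF replicate 1 (log2 fold change 1.10, adjusted p 0.0204), as did the difference between disease effects (-1.06, and -1.40 without that library). Treated hearts held 3.46 and 3.16 CPM in EMPA, 4.27 and 4.11 CPM in PFD and 3.19, 5.02 and 3.66 CPM in EMPA + PFD, with EMPA below every untreated heart. Slc25a2 passed in HFpEF with the Eif2s3y term (1.32, adjusted p 0.0449). The glycine carrier Slc25a38 ranged from 13.8 to 27.5 CPM and fell in EMPA + PFD against control 9w, by 0.45 (adjusted p 0.02903), a call lost without control 9w replicate 1 or 2 or EMPA + PFD replicate 2 or 3 (log2 fold changes from -0.44 to -0.33, adjusted p from 0.0781 to 0.152). Slc25a29, a carrier of basic amino acids, ranged from 3.46 to 15.8 CPM; its change of -0.85 in HFpEF passed without HFpEF replicate 3 (log2 fold change -1.10, adjusted p 0.0411). In EMPA it was at 3.46 and 4.49 CPM, below all untreated hearts (-1.34, adjusted p 0.249). Slc25a38 lost its call in EMPA + PFD against control 9w with only the libraries compared (-0.44, adjusted p 0.0747). Slc25a29 passed in HFpEF in DESeq2 (-0.86, adjusted p 0.03403). Slc25a44, which carries branched-chain amino acids, ranged from 14.8 to 29.3 CPM, and its change of 0.34 with the combination passed without untreated replicate 1 (log2 fold change 0.45, adjusted p 0.0357). Slc25a44 passed in EMPA + PFD against untreated in DESeq2 (0.37, adjusted p 0.0305).

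Slc25a28 and Slc25a37, the mitoferrins, bring iron to the matrix for heme and iron-sulfur clusters. Slc25a28 was at 41.8, 38.7 and 37.2 CPM in control 5w and 69.04, 83.3 and 60.7 CPM in HFpEF. Every HFpEF heart was above every control. It rose by 0.86 (SE 0.12, adjusted p 0.000873), and passed in all 19 fits with 1 library left out, from 0.73 to 0.96. In edgeR fits of all libraries without a further term, under TMM or relative log expression scaling, no carrier but Slc25a28 rose in HFpEF; DESeq2 passed Slc25a25 as well, and edgeR with the Eif2s3y term Slc25a2. At week 9 the levels were 73.1, 78.8 and 64.5 CPM in control 9w and 75.01, 87.4 and 71.1 CPM in untreated, and 90.7 and 82.5 CPM in EMPA, 61.3 and 66.3 CPM in PFD and 69.7, 69.9 and 64.9 CPM in EMPA + PFD. Control 9w overlapped HFpEF and lay above control 5w. Slc25a28 also rose between the controls, by 0.88 (SE 0.12, adjusted p 0.000278), untreated overlapped control 9w, and the disease effects of 0.86 and 0.11 differed by -0.75 (adjusted p 0.00994). Slc25a37 was at 12.2, 11.6 and 11.9 CPM in control 5w and 13.7, 9.08 and 12.1 CPM in HFpEF, at 12.7, 16.6 and 15.8 CPM in control 9w and 8.76, 11.8 and 9.06 CPM in untreated, and at 13.98 and 10.4 CPM in EMPA, 10.8 and 9.67 CPM in PFD and 8.51, 10.3 and 12.01 CPM in EMPA + PFD. Week 5 groups overlapped, and untreated and EMPA + PFD lay below control 9w. It fell by 0.55 in EMPA + PFD against control 9w (SE 0.19, adjusted p 0.0387), a call lost without control 9w replicate 2 or 3, PFD replicate 1 or 2 or EMPA + PFD replicate 1 or 2 (log2 fold changes from -0.54 to -0.41, adjusted p from 0.0518 to 0.141). For untreated against control 9w the change was -0.60 (adjusted p 0.105), and it passed without untreated replicate 2 (-0.75, 0.0417). Slc25a37 lost its call in EMPA + PFD against control 9w with only the libraries compared (-0.53, adjusted p 0.0598) and with the replicate block (-0.55, adjusted p 0.0562).

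Slc25a39 and Slc25a40 take glutathione into mitochondria. Slc25a39 ranged from 73.5 CPM in untreated replicate 2 to 185 CPM in control 5w replicate 1. It fell between the controls by 0.76 (adjusted p 0.0142) and rose in EMPA + PFD against control 9w by 0.68 (adjusted p 0.02401), the latter lost without control 9w replicate 1 or 2 or EMPA + PFD replicate 2 (log2 fold changes from 0.65 to 0.70, adjusted p from 0.0627 to 0.0742). The difference between its disease effects, 0.71, passed without untreated replicate 2 (log2 fold change 0.97, adjusted p 0.00383). Slc25a40 ranged from 5.27 to 12.3 CPM and passed in no comparison, with HFpEF below control 5w (-0.50, adjusted p 0.163). Of 10 heme synthesis genes, which draw on the imported iron, 3 fell in HFpEF, Uros by 1.47 and Alas1 by 1.62 among them, and none rose. Of all genes 10.2% fell there. Between the controls 5 of the 10 fell and none rose, where 17.2% of all genes fell. With the combination Abcb10 and Fech rose, by 0.52 and 0.92, as 6.6% of all genes did. Against control 9w 6 rose and 1 fell, as 17.1% and 16.6% of all genes did, the last being the erythroid Alas2 at -2.39. Of 5 sideroflexins, Sfxn3 fell with the combination, by 0.78.

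Slc25a26 brings S-adenosylmethionine, the methyl donor, to the matrix. It was at 80.2, 74.4 and 74.7 CPM in control 5w and 23.3, 27.4 and 49.4 CPM in HFpEF, and at 35.1, 38.4 and 43.7 CPM in control 9w, 63.6, 25.98 and 63.2 CPM in untreated and 75.9, 89.4 and 61.7 CPM in EMPA + PFD. HFpEF and control 9w lay below control 5w, untreated replicate 2 was low, and EMPA + PFD overlapped untreated. Slc25a26 fell by 1.20 in HFpEF (SE 0.30, adjusted p 0.0152), a call lost without HFpEF replicate 1 or 2 (log2 fold changes from -1.08 to -0.99, adjusted p from 0.05503 to 0.0569). Its fall between the controls, -0.97 (adjusted p 0.0229), was lost without control 9w replicate 1 or 2 (log2 fold changes from -0.95 to -0.90, adjusted p from 0.0708 to 0.0793). It rose by 0.95 in EMPA + PFD against control 9w (adjusted p 0.0253), lost without control 9w replicate 1 or 2 or EMPA + PFD replicate 2 (log2 fold changes from 0.83 to 0.94, adjusted p from 0.0737 to 0.0868). The single agents gave 60.1 and 70.8 CPM in EMPA and 83.8 and 71.3 CPM in PFD. The disease effects, -1.20 and 0.38, differed by 1.58 (adjusted p 0.0192), lost without untreated replicate 1 (log2 fold change 1.39, adjusted p 0.0584). Slc25a26 lost its call in HFpEF with only the libraries compared (-1.19, adjusted p 0.0595) and with the Eif2s3y term (-1.48, adjusted p 0.0567).

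Slc25a17 lies in peroxisomes rather than mitochondria and carries cofactors such as coenzyme A. It was at 24.6, 38.6 and 35.2 CPM in control 5w and 42.5, 41.4 and 42.6 CPM in HFpEF, with HFpEF above, and at 45.1, 47.3 and 45.9 CPM in control 9w, 33.02, 43.8 and 33.7 CPM in untreated and 34.4, 32.4 and 28.9 CPM in EMPA + PFD. Control 9w was above control 5w, and untreated and EMPA + PFD were below control 9w. It rose by 0.49 between the controls (SE 0.15, adjusted p 0.0197), a call lost without control 5w replicate 1 or control 9w replicate 2 (log2 fold changes from 0.33 to 0.47, adjusted p from 0.0607 to 0.0639), and fell by 0.53 in EMPA + PFD against control 9w (adjusted p 0.0144), lost without EMPA + PFD replicate 3 (log2 fold change -0.45, adjusted p 0.0668). In HFpEF its change of 0.36 passed without control 5w replicate 2 (log2 fold change 0.49, adjusted p 0.0491). The disease effects differed by -0.68 (adjusted p 0.0332), lost without control 5w replicate 1, HFpEF replicate 1, 2 or 3, control 9w replicate 1 or 2 or untreated replicate 1 or 3 (log2 fold changes from -0.70 to -0.52, adjusted p from 0.0525 to 0.0904). EMPA held 36.1 and 42.8 CPM and PFD 32.8 and 31.8 CPM. Slc25a17 lost its call between the controls with only the libraries compared (0.52, adjusted p 0.0592), and for the difference between disease effects with only the libraries compared (-0.68, adjusted p 0.0708) and with the Eif2s3y term (-0.70, adjusted p 0.0526).

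Slc25a32, linked to folate and flavin transport, ranged from 16.2 to 29.0 CPM. It fell by 0.45 in HFpEF (SE 0.12, adjusted p 0.0227), where the libraries held 16.5, 16.2 and 16.3 CPM against 20.8, 22.8 and 23.2 CPM in control 5w. All HFpEF hearts lay below the controls, though the call was lost without control 5w replicate 2 or 3 or HFpEF replicate 1, 2 or 3 (log2 fold changes from -0.45 to -0.41, adjusted p from 0.0506 to 0.06901). With the combination its change of 0.38 passed without control 5w replicate 1 or EMPA + PFD replicate 1 (log2 fold changes from 0.40 to 0.52, adjusted p from 0.0109 to 0.0448), and against control 9w its 0.22 passed without EMPA + PFD replicate 1 (log2 fold change 0.36, adjusted p 0.0316). Slc25a32 lost its call in HFpEF with only the libraries compared (-0.43, adjusted p 0.0756) and with the Eif2s3y term (-0.46, adjusted p 0.122); it passed in EMPA + PFD against untreated under relative log expression scaling (0.40, adjusted p 0.0484) and in DESeq2 (0.41, adjusted p 0.0222). Slc25a42, which brings in coenzyme A, ranged from 38.8 to 176 CPM and rose between the controls by 0.92 (adjusted p 0.0446), the only carrier that passed there with overlapping groups. That call was lost without control 5w replicate 2 or 3, HFpEF replicate 3, control 9w replicate 1 or 2, untreated replicate 3, EMPA replicate 1 or 2 or EMPA + PFD replicate 1, 2 or 3 (log2 fold changes from 0.74 to 0.92, adjusted p from 0.0505 to 0.157). Slc25a42 lost its call between the controls without the count filter (0.91, adjusted p 0.0517), with only the libraries compared (0.94, adjusted p 0.0551) and with the replicate block (0.92, adjusted p 0.0671). The pyrimidine nucleotide carrier Slc25a33 ranged from 6.10 to 28.9 CPM, and Slc25a16, linked to coenzyme A, from 26.2 to 34.9 CPM, the narrowest range among the 35 by the ratio of highest to lowest, 1.33. Neither passed in any comparison.

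Slc25a30, Slc25a14 and Slc25a27 are the closest relatives of the uncoupling proteins in the family. Slc25a30 was at 50.5, 38.3 and 39.7 CPM in control 5w and 17.5, 15.7 and 22.7 CPM in HFpEF, and at 18.05, 17.8 and 19.5 CPM in control 9w and 28.1, 19.6 and 28.8 CPM in untreated. With treatment it was at 25.2 and 28.5 CPM in EMPA, 54.6 and 37.1 CPM in PFD and 53.6, 117 and 56.2 CPM in EMPA + PFD. HFpEF hearts were all below control 5w, control 9w lay below control 5w, and EMPA + PFD lay above every untreated and control 9w heart, with replicate 2 the highest of all libraries. Slc25a30 fell by 1.20 in HFpEF (SE 0.27, adjusted p 0.00908) and by 1.21 between the controls (SE 0.27, adjusted p 0.00406). It rose by 1.57 in EMPA + PFD against untreated (SE 0.27, adjusted p 0.00712) and by 2.03 against control 9w (SE 0.28, adjusted p 0.0005000). Each of these 4 calls held in all 19 fits with 1 library left out, and in the comparison with untreated it was the only carrier to do so, from 1.13 to 1.79. Without EMPA + PFD replicate 2 that change was 1.13 (adjusted p 0.0362). With the Eif2s3y term it was 1.93 (adjusted p 0.0502), and with only the untreated and EMPA + PFD libraries in the fit 1.55 (adjusted p 0.0913). The disease effects, -1.20 at week 5 and 0.46 at week 9, differed by 1.66 (SE 0.38, adjusted p 0.00994). PFD hearts were above untreated without a call (0.85, adjusted p 0.786). Slc25a14 ranged from 5.82 to 12.3 CPM and passed in no comparison. Slc25a27 ranged from 2.27 to 8.53 CPM and passed in none, though its -0.76 in EMPA + PFD against control 9w passed without EMPA + PFD replicate 1 (log2 fold change -1.19, adjusted p 0.0282). Among relatives whose symbols fall outside the rule, 4 were tested. Mtch2 fell in HFpEF by 0.96 (adjusted p 0.0456), Ucp2 rose with the combination by 1.24 (adjusted p 0.0276), and Ucp3 rose against control 9w by 2.11 (adjusted p 0.0282).

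Slc25a46 sits in the outer membrane, where it takes part in fusion and fission of mitochondria. It was at 102, 70.99 and 77.4 CPM in control 5w and 51.6, 50.2 and 52.9 CPM in HFpEF, and at 53.2, 46.2 and 53.6 CPM in control 9w and 77.3, 48.2 and 62.9 CPM in untreated. With treatment it was at 58.1 and 57.7 CPM in EMPA, 72.95 and 73.8 CPM in PFD and 89.8, 93.8 and 96.1 CPM in EMPA + PFD. HFpEF lay below control 5w with little spread, untreated overlapped control 9w through its replicate 2, and EMPA + PFD lay above both. Slc25a46 fell by 0.70 in HFpEF (SE 0.15, adjusted p 0.00826) and by 0.71 between the controls (adjusted p 0.00329), and rose by 0.87 in EMPA + PFD against control 9w (adjusted p 0.00136); these calls held in all 19 fits with 1 library left out. Against untreated it rose by 0.57 (SE 0.15, adjusted p 0.0299), a call lost without untreated replicate 2 or 3 or EMPA + PFD replicate 2 or 3 (log2 fold changes from 0.41 to 0.59, adjusted p from 0.0676 to 0.128). Its disease effects, -0.70 and 0.30, differed by 0.99 (adjusted p 0.007602). Slc25a46 lost its call in HFpEF with only the libraries compared (-0.69, adjusted p 0.0671) and with the Eif2s3y term (-0.73, adjusted p 0.0558), and in EMPA + PFD against untreated with only the libraries compared (0.56, adjusted p 0.126) and with the Eif2s3y term (0.63, adjusted p 0.204).

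For the remaining carriers the substrate is not settled. Slc25a45 was at 18.6, 17.8 and 15.7 CPM in control 5w and 27.9, 21.3 and 24.3 CPM in HFpEF, and at 25.2, 36.5 and 24.3 CPM in control 9w, 19.6, 25.7 and 23.5 CPM in untreated and 16.9, 15.4 and 10.6 CPM in EMPA + PFD. HFpEF was above control 5w, and EMPA + PFD was below both untreated and control 9w. Slc25a45 fell by 0.68 with the combination (SE 0.20, adjusted p 0.0406), the only carrier to fall there, and the call was lost without control 5w replicate 2 or 3, HFpEF replicate 3, control 9w replicate 1, untreated replicate 2 or 3, PFD replicate 1 or 2 or EMPA + PFD replicate 2 or 3 (log2 fold changes from -0.73 to -0.49, adjusted p from 0.0504 to 0.157). Against control 9w it fell by 1.00 (adjusted p 0.00249), in all 19 fits with 1 library left out. Between the controls it rose by 0.72 (adjusted p 0.0118), lost without control 9w replicate 2 (log2 fold change 0.51, adjusted p 0.0744). The disease effects differed by -0.82 (adjusted p 0.0494), and that call was lost without control 5w replicate 1, 2 or 3, HFpEF replicate 1 or 3, control 9w replicate 1 or 2, untreated replicate 1 or 3, EMPA replicate 1 or 2, PFD replicate 1 or 2 or EMPA + PFD replicate 2 (log2 fold changes from -0.90 to -0.61, adjusted p from 0.0557 to 0.136). EMPA held 20.9 and 17.1 CPM and PFD 18.95 and 15.3 CPM, PFD below every untreated heart. Slc25a45 lost its call in EMPA + PFD against untreated with only the libraries compared (-0.70, adjusted p 0.119) and with the Eif2s3y term (-0.39, adjusted p 0.535), and for the difference between disease effects without the count filter (-0.81, adjusted p 0.0597), with only the libraries compared (-0.81, adjusted p 0.0599) and with the replicate block (-0.81, adjusted p 0.0562). Slc25a34 ranged from 34.9 to 209 CPM and passed in no comparison with all libraries in the fit; its 0.95 between the controls passed without control 5w replicate 1 (1.36, adjusted p 0.0336) or untreated replicate 2 (0.95, adjusted p 0.0302). Slc25a35 ranged from 4.18 to 9.04 CPM and passed in none, with EMPA + PFD below untreated (-0.52, adjusted p 0.1304). Slc25a34 passed between the controls with only the libraries compared (0.97, adjusted p 0.0445). Slc25a47 had 0 to 3 counts per library, Slc25a53 0 to 7 and Slc25a54 0 or 1, and none of these 3 was tested.

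Regulators of mitochondrial biogenesis were read beside the carriers. Of 9 such genes 3 fell in HFpEF, as 10.2% of all genes did, and the same 3 rose with the combination, as 6.6% did. Ppargc1a fell by 1.91 and rose by 2.04, Esrrg by 2.03 and 1.57, and Ppara by 2.17 and 1.21. These calls are from the fit of all libraries and are not given here for other fits. The carriers that passed in both of these comparisons were Slc25a15, Slc25a21, Slc25a30 and Slc25a46, 4 of 35, each lower in HFpEF and higher with the combination, as 3.87% of all genes were. Without untreated replicate 2 or EMPA + PFD replicate 2, Slc25a30 was the only carrier of the 4 that passed against untreated, and with the Eif2s3y term or only the libraries compared none did. The comparisons have no library in common, but both came from 1 fit with a shared estimate of spread. Eif2s3y had 0 counts in HFpEF replicates 1 and 3 and in all untreated libraries. It was counted in every control 5w and EMPA + PFD library, so both comparisons run along that split, the first in part.

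Promoters of the carriers were read for motifs because several carriers fell together in HFpEF. RefSeq windows of 300 bases, from 250 before to 50 after the start of the gene, were at hand for 34 of the 40 carriers in build GRCr8. Among carriers that fell in HFpEF, the promoters of Slc25a26, Slc25a30, Slc25a32 and Slc25a46 were not analysed here. Both strands were searched for AAGGTCA, the half-site of estrogen-related receptors, CCGGAAG of ETS factors, the palindromic element of NRF1 and the CCAAT box (CCAAT), and no match of one motif contains another. Of 33469 promoters searched, 4.61%, 8.75%, 4.25% and 37.5% held them in that order. Among the 34 carriers AAGGTCA was found in 1 (Slc25a34), CCGGAAG in 7 (Slc25a3, Slc25a4, Slc25a14, Slc25a17, Slc25a20, Slc25a38 and Slc25a54), the NRF1 element in 0 and CCAAT in 19. CCAAT was found in 4 of the 5 carriers that fell in HFpEF and had a window, Slc25a11, Slc25a15, Slc25a21 and Slc25a23, but not in Slc25a5. It was also found in Slc25a28, the carrier that rose, with 3 matches. A match is a description of letters only. Printed 5′ to 3′ below, with matches of any of the motifs in capitals, are these 5 carriers, Slc25a28, which rose, and the phosphate and carnitine carriers Slc25a3 and Slc25a20, which hold CCGGAAG. The windows were Slc25a5 at chrX:120897366-120897665 (plus strand), Slc25a11 at chr10:55859011-55859310 (minus strand), Slc25a15 at chr16:76336620-76336919 (plus strand), Slc25a21 at chr6:80437671-80437970 (minus strand), Slc25a23 at chr9:1985316-1985615 (minus strand), Slc25a28 at chr1:252491293-252491592 (minus strand), Slc25a3 at chr7:27506578-27506877 (minus strand) and Slc25a20 at chr8:118243323-118243622 (plus strand).
Slc25a5: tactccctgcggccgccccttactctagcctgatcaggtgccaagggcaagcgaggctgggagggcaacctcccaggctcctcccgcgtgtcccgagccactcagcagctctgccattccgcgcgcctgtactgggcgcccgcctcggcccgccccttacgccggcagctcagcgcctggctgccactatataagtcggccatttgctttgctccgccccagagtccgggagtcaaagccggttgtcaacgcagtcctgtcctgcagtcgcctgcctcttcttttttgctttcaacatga
Slc25a11: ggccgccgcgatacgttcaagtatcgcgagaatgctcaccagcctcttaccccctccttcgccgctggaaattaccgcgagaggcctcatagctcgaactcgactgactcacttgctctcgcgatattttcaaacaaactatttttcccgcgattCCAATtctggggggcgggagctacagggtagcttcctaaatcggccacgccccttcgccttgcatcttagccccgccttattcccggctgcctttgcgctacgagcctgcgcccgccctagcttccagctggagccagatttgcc
Slc25a15: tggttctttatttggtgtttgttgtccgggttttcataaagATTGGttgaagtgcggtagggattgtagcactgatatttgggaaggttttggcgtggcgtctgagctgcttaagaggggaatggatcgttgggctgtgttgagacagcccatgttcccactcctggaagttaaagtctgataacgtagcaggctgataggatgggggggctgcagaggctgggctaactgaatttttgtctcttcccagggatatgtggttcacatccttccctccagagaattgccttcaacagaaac
Slc25a21: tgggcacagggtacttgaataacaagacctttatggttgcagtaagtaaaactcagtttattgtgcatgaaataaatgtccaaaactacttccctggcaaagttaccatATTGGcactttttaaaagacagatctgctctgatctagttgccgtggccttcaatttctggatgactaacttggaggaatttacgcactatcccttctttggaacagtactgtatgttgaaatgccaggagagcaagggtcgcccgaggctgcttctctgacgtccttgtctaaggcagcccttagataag
Slc25a23: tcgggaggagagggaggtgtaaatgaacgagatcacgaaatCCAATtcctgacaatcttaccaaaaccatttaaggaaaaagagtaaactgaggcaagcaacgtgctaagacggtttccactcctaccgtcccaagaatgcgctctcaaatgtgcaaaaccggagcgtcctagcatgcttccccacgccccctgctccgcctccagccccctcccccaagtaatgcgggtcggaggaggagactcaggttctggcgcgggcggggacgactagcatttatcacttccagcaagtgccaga
Slc25a28: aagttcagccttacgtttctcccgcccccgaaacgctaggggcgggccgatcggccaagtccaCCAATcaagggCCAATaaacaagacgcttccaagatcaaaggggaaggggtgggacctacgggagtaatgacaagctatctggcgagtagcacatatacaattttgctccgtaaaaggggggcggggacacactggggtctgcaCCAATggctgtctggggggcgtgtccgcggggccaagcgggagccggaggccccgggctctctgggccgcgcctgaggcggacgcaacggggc
Slc25a3: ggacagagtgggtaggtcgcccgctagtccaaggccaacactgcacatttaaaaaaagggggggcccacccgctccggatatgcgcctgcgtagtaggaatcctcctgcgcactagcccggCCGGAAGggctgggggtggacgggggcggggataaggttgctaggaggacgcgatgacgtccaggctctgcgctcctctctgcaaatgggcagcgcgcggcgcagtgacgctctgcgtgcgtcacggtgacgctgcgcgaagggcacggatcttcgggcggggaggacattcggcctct
Slc25a20: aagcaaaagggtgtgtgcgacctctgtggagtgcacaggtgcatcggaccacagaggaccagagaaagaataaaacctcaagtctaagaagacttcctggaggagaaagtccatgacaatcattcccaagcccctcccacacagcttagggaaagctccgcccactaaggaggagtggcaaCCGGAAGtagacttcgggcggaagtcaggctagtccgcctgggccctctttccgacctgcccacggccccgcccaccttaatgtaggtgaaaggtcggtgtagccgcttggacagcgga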

How the data were processed

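Total RNA of 19 rat hearts was sequenced, and the authors deposited the counts as whole numbers per gene symbol without normalization. By the submitters' processing notes and the paper, reads were trimmed with Trim Galore (adapters, quality 20), checked with FastQC, aligned to rn6 with HISAT2 and counted with HTSeq. The files of single samples were used; the series-wide table holds the same counts and was left out.

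Samples were grouped by their labels into 7 groups. In R 4.3.3, edgeR 4.0.16 fitted 1 model to all libraries (TMM scaling, filterByExpr by group), and two-sided quasi-likelihood F tests gave 9 comparisons, with p adjusted by Benjamini-Hochberg over 12388 genes. The biological coefficient of variation was 0.257. An exact permutation test of 3 against 3 libraries cannot go below 0.1. Standard errors (SE) are the size of the log2 fold change over the square root of F.

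Carriers given with every library were the ADP/ATP, phosphate, oxoglutarate, carnitine, citrate and dicarboxylate carriers, the up to 3 largest rises and falls that passed in each comparison, and those that passed the difference between disease effects; from each list of related genes up to 3 with the smallest adjusted p were named. The symbol rule uses no measured value, but members and lists were chosen with earlier results of these data known; 1 carrier and 2 related genes count in the totals and are not reported here by name. Alternatives were relative log expression scaling, no count filter, DESeq2 1.42.0, only the libraries compared, a replicate block, an Eif2s3y term, a further 2-fold threshold and each library left out in turn. Calls of related genes and cell-type markers are given for the edgeR fit of all libraries only.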

Additional observations from a re-analysis of the deposited data

Results flagged for a closer look

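The disease effect at week 9 (untreated minus control 9w) and that at week 5 (HFpEF minus control 5w) were tested for their difference. There 11 carriers passed, as did 20% of all genes. For 7 the value at week 9 was the higher, as for 9.76% of all genes. Slc25a23 differed by 2.30, from -1.78 to 0.52. Slc25a11 differed by 2.24, from -1.38 to 0.86. Slc25a15 differed by 1.78, from -1.13 to 0.65. Slc25a30 differed by 1.66, from -1.20 to 0.46. Slc25a26 differed by 1.58, from -1.20 to 0.38. Slc25a5 differed by 1.09, from -0.78 to 0.31. Slc25a46 differed by 0.99, from -0.70 to 0.30. For 4 it was the lower, as for 10.2% of all genes. Slc25a25 differed by -1.39, from 0.63 to -0.76. Slc25a45 differed by -0.82, from 0.50 to -0.32. Slc25a28 differed by -0.75, from 0.86 to 0.11. Slc25a17 differed by -0.68, from 0.36 to -0.32. All 11 had also passed between the controls, control 9w against control 5w, where 34.5% of all genes passed. The difference uses both control groups, and how many of all genes passed both tests was not counted. None of the 11 passed at week 9 alone in edgeR with all libraries; Slc25a11 did without untreated replicate 2 (1.26, adjusted p 0.0283), and DESeq2 passed Slc25a25 (-0.77, adjusted p 0.0208). With each library left out in turn, Slc25a15, Slc25a23, Slc25a25, Slc25a28, Slc25a30 and Slc25a46 passed in all 19 fits. The call of Slc25a11 was lost without untreated replicate 1 (log2 fold change 1.80, adjusted p 0.0532). The call of Slc25a26 was lost without untreated replicate 1 (log2 fold change 1.39, adjusted p 0.0584). The call of Slc25a5 was lost without control 5w replicate 1, 2 or 3, HFpEF replicate 1 or 2, control 9w replicate 1 or 2, untreated replicate 1 or 3 or EMPA + PFD replicate 3 (log2 fold changes from 0.88 to 1.17, adjusted p from 0.0512 to 0.119). The call of Slc25a17 was lost without control 5w replicate 1, HFpEF replicate 1, 2 or 3, control 9w replicate 1 or 2 or untreated replicate 1 or 3 (log2 fold changes from -0.70 to -0.52, adjusted p from 0.0525 to 0.0904). The call of Slc25a45 was lost without control 5w replicate 1, 2 or 3, HFpEF replicate 1 or 3, control 9w replicate 1 or 2, untreated replicate 1 or 3, EMPA replicate 1 or 2, PFD replicate 1 or 2 or EMPA + PFD replicate 2 (log2 fold changes from -0.90 to -0.61, adjusted p from 0.0557 to 0.136). With only the libraries of these groups in the fit 7 of the 11 passed (13.1% of all genes), and the calls of Slc25a5, Slc25a11, Slc25a17 and Slc25a45 were lost; the Eif2s3y term lost Slc25a5 and Slc25a17. In the same difference 3 of 10 cardiomyocyte markers were higher at week 9 (median 1.64), 1 of 7 smooth muscle and pericyte markers higher (median -0.21), 2 of 7 endothelial markers lower (median -0.92) and 3 of 4 erythroid markers lower (median -3.43); their part was not tested.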

How the results depend on the processing

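The number of carriers that passed depended on the call rule. With at least 2-fold added to the threshold it was 6 rather than 10 for disease at week 5 (8.69% of all genes). It was 7 rather than 15 between the controls (14.7%) and 2 rather than 5 for the combination against untreated (3.82%). For the combination against control 9w it was 7 rather than 14 (12.1%), and for the difference between disease effects 7 rather than 11 (12%). With only the libraries of the groups compared, where fewer libraries estimate the spread, it was 3 at week 5 (6.01% of all genes). It was 7 for the difference between disease effects (13.1%). For the combination against untreated edgeR passed 0 carriers (0.0435%), with 12 at an unadjusted p under 0.05 (28%). DESeq2 on all libraries passed 7 there (20.4%). Between the controls 6 rose and 7 fell (32.6%). For the combination against control 9w the count went up, with 12 rises and 4 falls (39.1%) rather than 10 and 4 (33.8%). With the Eif2s3y term it was 5 at week 5, 2 higher and 3 lower (10.8% of all genes), and 0 for the combination against untreated (3.99%; edgeR, 7 at an unadjusted p under 0.05, as 23.2% of all genes; DESeq2 without the term, 7, as 20.4%). DESeq2 passed 3 in untreated against control 9w (6.66% of all genes), where edgeR passed 0. With untreated replicate 2 and HFpEF replicate 1 both left out, an alternative chosen after seeing the data, it was 3 in that comparison (9.26%) and 1 for the combination against untreated (2.32%). The 2-fold rule is stricter by construction; the cause of the other shifts was not tested.

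At week 5, Slc25a28 (0.73 to 1.09) and Slc25a30 (-1.45 to -1.06) kept their direction and passed with relative log expression, without the count filter, in DESeq2, with only the libraries compared, with the replicate block, with the Eif2s3y term and with each library left out. Slc25a23 passed in all of these but the Eif2s3y term (-1.46, adjusted p 0.0546), and Slc25a46 in all but that term (-0.73, adjusted p 0.0558) and the fit of only the libraries compared (-0.69, adjusted p 0.0671). The cause was not tested.

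Leaving out 1 library at a time gave 4 to 13 carriers at week 5 (12% to 25.3% of all genes), 9 to 18 between the controls (20.9% to 38.4%), 0 to 3 for untreated against control 9w (0.0647% to 8.22%), 1 to 8 for the combination against untreated (0.888% to 18.3%), 7 to 17 for the combination against control 9w (20% to 37%) and 6 to 15 for the difference between disease effects (10.7% to 29.9%). EMPA, PFD and their interaction stayed at 0 in edgeR under every alternative; a group left with 1 library is assumed to vary like the others. Of the values of named carriers, none changed sign with a call on either side.

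A replicate block, which takes libraries of the same number as a pair, passed 9 carriers at week 5 (17% of all genes), 14 between the controls (31.2%), 5 for the combination against untreated (8.84%), 13 against control 9w (31%) and 10 for the difference between disease effects (16.6%). The numbers did not pair the libraries: over 52 pairs of libraries with the same number the correlation ran from -0.53 to 0.49 with a median of -0.07, and 1 library correlated best with its own number.

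Groups of 3 or 2 hearts limit these results. At the present depth Slc25a1, Slc25a2, Slc25a15, Slc25a21, Slc25a22, Slc25a27, Slc25a29, Slc25a35 and Slc25a40 had fewer than 60 counts in some libraries, so their differences carry more counting error. The 5 untested carriers were left out by the count filter, and these results do not show whether they differed.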
